A study of Mus musculus with 4 samples.

Results

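The pre-B receptor genes are Igll1, Vpreb1, Vpreb2, Vpreb3, Cd79a, Cd79b and Ighm, 7 of the 32227 genes counted. They were taken by symbol and followed in single-cell RNA sequencing of mouse bone marrow. Unique molecular identifiers (UMIs) were summed per replicate over all cells and over cell types set by marker genes. All mice were wild type and had been given E0771 cells, a mouse mammary tumour line, 3 days before an operation that was either sham or ligation of the femoral artery. Marrow was taken on day 9 and depleted of lineage-positive cells, sorted by flow cytometry for cKit whether or not Sca1 was present, and captured by PIPseq in templated droplets. Each of 2 captures, here batch 1 and batch 2, held 2 sham and 2 surgery replicates marked by hashtag oligonucleotides, giving n = 4 per group. The study asked how ischemic injury acts on stem and progenitor cells of the marrow. Tumour-bearing mice make up both groups, so no value here comes from a mouse without a tumour. The sources used here give no age or sex. They leave unsaid whether each hashtag marks a single mouse or several, and the p-values below refer to the variation among hashtag replicates, whatever its origin.

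The pre-B receptor is the checkpoint receptor of early B cells. A newly rearranged µ heavy chain, whose constant region is encoded by Ighm, pairs with a surrogate light chain before any true light chain exists. Igll1 encodes lambda5, the constant-like part of the surrogate chain, and Vpreb1 or Vpreb2 supplies the variable-like piece. Cd79a and Cd79b encode Ig-alpha and Ig-beta, which carry the signal into the cell and stay on as partners of the mature B cell receptor. Vpreb3 encodes a related protein of the secretory pathway that binds free immunoglobulin chains. Signalling through the receptor drives pre-B cells into division, after which the surrogate genes are shut off and light chain genes rearrange.

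Igll1 (ENSMUSG00000075370) lies at chr16:16860671-16863985 on the minus strand of GRCm38, with 4417 bases between it and Vpreb1 (ENSMUSG00000059305) at chr16:16868403-16870843, also on the minus strand. Vpreb2 (ENSMUSG00000059280) is on the plus strand of the same chromosome at chr16:17980428-17981273, 1110 kb from Vpreb1. Vpreb3 (ENSMUSG00000000903) is at chr10:75943057-75949657 on the plus strand. Cd79a (ENSMUSG00000003379) is at chr7:24897381-24902197 on the plus strand, and Cd79b (ENSMUSG00000040592) at chr11:106311341-106314762 on the minus strand. Ighm (ENSMUSG00000076617) is annotated as a constant region gene at chr12:113418558-113422730 on the minus strand. Counts per gene therefore do not tell a rearranged µ transcript from a germline transcript of the constant region. Coordinates are those of GENCODE release 21, in which all 7 gene identifiers of the files were found.

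Vpreb1 and Vpreb2 are near copies, which bears on every count below. Their transcripts of 766 and 759 bases were identical at 740 of 766 aligned columns (96.6%), with an unbroken identical run of 196 bases. The sources used here do not say how reads matching both genes were counted, so the division of UMIs between Vpreb1 and Vpreb2 is uncertain. Their upstream sequence is shared as well. The following 106-base stretches, identical at 104 bases (98.1%), are shown to make that likeness visible. They run from base 106 to base 1 before the RefSeq start of Vpreb1 (chr16:16869256-16869361, minus strand) and from base 250 to base 145 before that of Vpreb2 (chr16:17980315-17980420, plus strand). In GENCODE the Vpreb1 stretch lies within a pair of transcripts of that gene annotated as processed transcripts and overlaps an exon of one of them, whereas no Vpreb2 transcript covers the Vpreb2 stretch. Capitals mark the differing bases, G12T and C104T, with the base of Vpreb1 first and positions counted from the 5′ end of the stretch.
Vpreb1: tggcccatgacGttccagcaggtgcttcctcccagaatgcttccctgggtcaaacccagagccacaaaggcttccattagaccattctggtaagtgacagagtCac
Vpreb2: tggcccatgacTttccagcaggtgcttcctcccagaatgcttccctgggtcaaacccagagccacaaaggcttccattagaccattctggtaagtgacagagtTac
The RefSeq promoter table for GRCm38.p6 matched 5 of the 7 members, all but Cd79b and Ighm. The next sequences are the 250 bases before the start of Igll1 (chr16:16863986-16864235, minus strand) and of Vpreb3 (chr10:75948050-75948299, plus strand), shown because the levels of these genes part between stages. In GENCODE the Vpreb3 window lies in an intron of a longer Vpreb3 transcript that starts upstream. No Igll1 transcript covers the Igll1 window. Capitals mark matches on either strand to 4 motifs known for early B-cell promoters: CCCNNGGG for EBF, CAGGTG for E proteins, ATTTGCAT for octamer factors and TGTGGT for Runx.
Igll1: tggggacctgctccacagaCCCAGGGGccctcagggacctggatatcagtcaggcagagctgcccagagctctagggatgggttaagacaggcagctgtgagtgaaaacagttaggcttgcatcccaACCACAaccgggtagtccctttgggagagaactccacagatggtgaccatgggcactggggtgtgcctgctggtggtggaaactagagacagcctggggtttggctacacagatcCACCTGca
Vpreb3: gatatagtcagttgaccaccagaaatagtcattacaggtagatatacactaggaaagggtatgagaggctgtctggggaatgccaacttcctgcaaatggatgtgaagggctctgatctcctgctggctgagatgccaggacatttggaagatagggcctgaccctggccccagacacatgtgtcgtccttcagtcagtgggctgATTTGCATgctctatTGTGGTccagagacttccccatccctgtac
Igll1 held the EBF letters 231 bases before its start, the Runx letters at 123 and the E-protein letters at 8, the last pair on the reverse strand. Vpreb3 held the octamer at 45 bases and the Runx letters at 30 bases before its start. CAGGTG also lay in both stretches of Vpreb1 and Vpreb2. Among 32851 promoter windows of the same length, 11.8% held CCCNNGGG, 17.2% CAGGTG, 14.0% TGTGGT and 1.601% ATTTGCAT. A match describes letters and is not evidence of binding.

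After quality filters and hashtag assignment, 26942 cells were kept, 1883 to 5889 per replicate, with 19521590 to 51862441 UMIs per replicate. Median UMIs per cell were 5860.5 to 7190.5 in batch 1 and 10291 to 12406 in batch 2. The B-lineage gate, which used no member as a marker, held 3337 cells with a median of 2662 UMIs. Of these, 1474 were staged as pro-B-like, 440 as pre-B-like and 687 as immature- or mature-B-like, and 736 had no stage. These names are short for marker gates, and they are written without "-like" below. Kit, the receptor used in the sort and also 1 of the 6 pro-B stage markers, was at 57.1 ± 11.95 CPM (counts per 1000000 UMIs of the gate; SD, n = 8) in pro-B cells, against 9 UMIs in all pre-B cells and 9 in all immature or mature B cells. At least 3 markers of another class were present too in 463 B-lineage cells of batch 1 and 458 of batch 2, and the alternatives include 1 that leaves such mixed cells out.

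The surrogate light chain genes were highest in pro-B cells. Igll1 was at 2430 ± 229 CPM there (SD, n = 8), at 489 ± 134 in pre-B cells and at 9.98 ± 15.5 in immature or mature B cells. The corresponding means of Vpreb1 were 3860 ± 365, 632 ± 266 and 10.7 ± 12.2 CPM. Every pro-B replicate lay above every pre-B replicate for both genes. Vpreb2 followed with 485 ± 74.7, 93.4 ± 45.2 and 4.40 ± 8.39 CPM. Its share of the UMIs of both Vpreb genes, not scaled for length, was 11.2% in pro-B and 12.9% in pre-B cells.

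Between stages, 12 of 14 member comparisons passed edgeR's quasi-likelihood test at an adjusted p of 0.05. The background was high, with 35.3% of 6181 genes called between pre-B and pro-B and 45.1% between immature or mature B and pre-B, so the direction and size of each change carry more than the count. From pro-B to pre-B, Igll1 fell by 2.26 ± 0.11 on the log2 scale (SE; edgeR adjusted p = 1.1e-25), 4.80-fold. Vpreb1 fell by 2.59 ± 0.11 (edgeR adjusted p = 2.8e-28) and Vpreb2 by 2.38 ± 0.14 (edgeR adjusted p = 2.4e-21). Without mixed cells these changes were -3.06, -3.43 and -3.38. From pre-B to immature or mature B cells, Igll1 fell by 4.87 ± 0.25, with log2 changes of -5.44 ± 0.26 for Vpreb1 and -3.45 ± 0.37 for Vpreb2 (edgeR). All immature or mature B cells together held 27 UMIs of Igll1. The size of that last step depended on single replicates, since leaving out batch 1 sham replicate 2 gave -5.68 for Igll1 and -4.63 for Vpreb2, and leaving out batch 2 sham replicate 1 gave -6.08 for Vpreb1.

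Vpreb3 was not called between pro-B and pre-B cells, unlike the surrogate light chain genes Igll1, Vpreb1 and Vpreb2. It stood at 2124 ± 310 CPM in pro-B and 1973 ± 383 CPM in pre-B cells (SD, n = 8), with overlapping replicates and a log2 difference of -0.03, 95% interval -0.18 to 0.12. In immature or mature B cells it was at 626 ± 169 CPM, a fall of 1.59 ± 0.09 on the log2 scale (edgeR adjusted p = 4.1e-23), and every replicate there was below every pre-B replicate.

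The lasting members of the receptor went the other way. Cd79a was at 921 ± 123 CPM in pro-B and 901 ± 234 CPM in pre-B cells, a log2 difference of 0.02 with a 95% interval from -0.13 to 0.17, and rose by 0.72 ± 0.08 into immature or mature B cells, at 1446 ± 281 CPM. Cd79b rose at both steps, from 504 ± 52.7 through 690 ± 156 to 1222 ± 159 CPM, by 0.51 ± 0.08 and then 0.88 ± 0.08. The first of these steps lost its call in batch 1 alone, where it was 0.29. Ighm rose from 1676 ± 135 through 3075 ± 438 to 4479 ± 421 CPM, by 0.94 ± 0.06 (edgeR adjusted p = 4.7e-21) and then 0.57 ± 0.06 (edgeR adjusted p = 1.3e-12). The Ighm replicates of the 3 stages did not overlap.

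**Figure D1:**
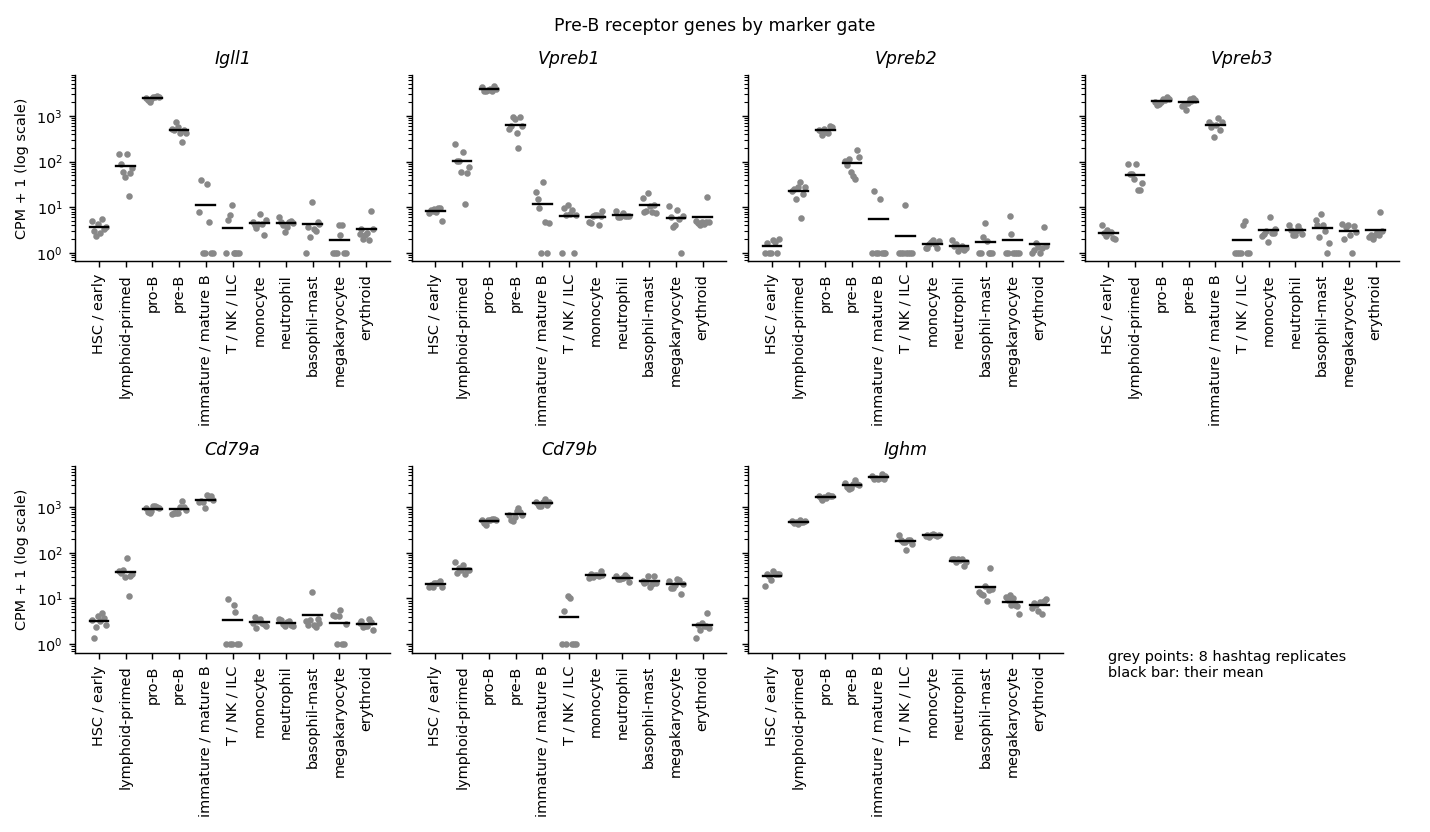
Level of each member in CPM + 1 on a log axis, by marker gate or B stage. Grey points are the 8 hashtag replicates and black bars their means: Igll1, Vpreb1 and Vpreb2 are highest in pro-B cells, and Cd79a, Cd79b and Ighm in immature or mature B cells.

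Shares of cells followed the same course for Igll1, Vpreb1, Vpreb2 and Vpreb3. After thinning each cell to 2000 UMIs, which left out shallower cells, Igll1 had a UMI in 94.8% of 1139 pro-B cells (exact binomial 95% interval 93.4 to 96.0), 27.1% of 354 pre-B cells (22.6 to 32.1) and 1.78% of 338 immature or mature B cells (0.654 to 3.82). Unthinned, the shares were 90.6%, 27.7% and 1.02%, at median depths of 2806, 3711 and 1990 UMIs. In erythroid cells, which should lack the gene, the thinned share was 0.649% (0.355 to 1.09) and the unthinned share 2.41% at a median of 13806 UMIs. Igll1 and Vpreb1 were found together in 93.3% of thinned pro-B cells and 22.3% of thinned pre-B cells (unthinned, 88.3% and 23.2%). Vpreb3 stayed in 93.5% of thinned pre-B cells and 52.4% of thinned immature or mature B cells. Ighm had a UMI in 99.2% of thinned pre-B cells. For Cd79b the thinned shares were 66.7% in pro-B (63.9 to 69.5) and 68.1% in pre-B cells (62.9 to 72.9). Its called rise at that step was thus not seen in the share, which was 89.1% in immature or mature B cells. These intervals cover counting error only.

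All 7 members were lower in CPM in B-lineage cells with at least 3 of 6 G2 and M phase genes than in the other B-lineage cells (edgeR), where 64.6% of 8164 genes were called. The log2 difference was smallest for Vpreb3, at -0.28 ± 0.05, and reached -0.85 ± 0.05 for Vpreb1 and -0.86 ± 0.07 for Vpreb2. Igll1 stood at 1196 ± 129 CPM in cycling and 1875 ± 382 CPM in other cells (SD, n = 8), a fall of 0.50 ± 0.05. Both stage and depth move with this comparison, and their part in it was not tested. Cycling cells made up 23.7% of pro-B, 55.0% of pre-B and 7.71% of immature or mature B cells, and their median was 5920.5 UMIs against 2231. At 2000 UMIs per cell the differences grew to -1.20 for Igll1, -1.51 for Vpreb1 and -1.68 for Vpreb2, and Vpreb3 lost its call in batch 1 alone (-0.16).

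Outside the B lineage, Ighm and Cd79b were above their erythroid levels in several gates, and the surrogate genes and Vpreb3 in the lymphoid-primed gate. Ighm in megakaryocytes (7.44 ± 2.37 CPM) overlapped the erythroid replicates, and Cd79b in T, NK or innate lymphoid cells was in 0.306% of thinned cells against 0.464% of erythroid cells. Ighm was at 474 ± 26.2 CPM in lymphoid-primed cells, 240 ± 10.1 in monocytes, 178 ± 37.0 in T, NK or innate lymphoid cells and 66.3 ± 8.34 in neutrophil-granulocyte cells, against 6.30 ± 1.80 in erythroid cells (SD, n = 8). None of these 5 gates overlapped another except monocytes and T, NK or innate lymphoid cells. In thinned cells Ighm had a UMI in 37.4% of monocytes and 1.48% of erythroid cells, at unthinned median depths of 12073 and 13806 UMIs. Cd79b was at 31.7 ± 3.80 CPM in monocytes, 27.4 ± 3.03 in neutrophil-granulocyte cells and 19.4 ± 2.38 in stem and early multipotent cells, against 1.61 ± 0.963 in erythroid cells. Its partner Cd79a was at 1.99 ± 0.546 CPM in monocytes and 1.80 ± 0.532 in erythroid cells, with overlapping replicates. Igll1 in monocytes, with 0.576% of thinned cells, was at the erythroid share and is read as background. In lymphoid-primed cells Igll1 was at 78.3 ± 47.1 CPM, Vpreb1 at 101 ± 71.5 and Vpreb3 at 50.0 ± 26.1. Leaving out mixed cells kept 168 of 687 sham and 171 of 524 surgery cells of this gate, so these are levels of a largely mixed gate. In the 153 plasmacytoid dendritic cells, too few per replicate for a test, Ighm was at 714 ± 208 CPM.

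Profiles over the 12 tested gates and stages grouped the members only partly as the stages did. Pearson's r of log2(mean CPM + 1) was 0.994 between Igll1 and Vpreb1 and 0.992 between Igll1 and Vpreb2, while Vpreb3 was closer to Cd79a (0.988) than to Igll1 (0.903). Cd79a in turn was closer to Vpreb3 than to Cd79b (0.928) or Ighm (0.889). Yet from pre-B to immature or mature B cells Vpreb3 and Cd79a had parted, with log2 changes of -1.59 and 0.72 (edgeR). The 12 points share libraries, and the stages are parts of the B-lineage gate, so these are descriptions. Among 9664 genes, the profile nearest Igll1 was that of Ighg2b (0.991), followed by Gm30948 and Gfra2. Gm30948 (0.994), Gfra2 and Rag1 were nearest Vpreb1, and Gfra2 (0.996), Ighg2b and Gm30948 nearest Vpreb2. Vpreb3 lay nearest Mzb1 (0.995), Gm13919 and Ebf1. The nearest profiles to Cd79a were Pax5 (0.998), Chst3 and Ebf1, of which Pax5 and Ebf1 are markers of the B-lineage gate. Cd79b was nearest Zfp513 (0.979), Fam43a and Gpd1l, and Ighm nearest Pik3c2a (0.985), Ubl3 and Raet1e.

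Surgery was then compared with sham, first over all cells, where fewer B cells and less RNA per B cell cannot be told apart. No member passed the test (edgeR, 0 of 7, lowest adjusted p = 0.9998), beside 0.0415% of 16858 genes, and DESeq2 also called 0. An unadjusted p under 0.05 was found for 2 members, beside 763 of the 16858 genes. Cd79a was at 66.4, 48.7, 60.6 and 48.3 CPM in the sham replicates (batch 1 replicates 1 and 2, then batch 2) and at 42.0, 48.2, 46.6 and 47.1 CPM in the surgery replicates. Every surgery value was below every sham value, by a narrow margin, a pattern that 0.967% of 13748 genes with a mean of at least 1 CPM showed. The log2 difference of Cd79a was -0.26 ± 0.10. Ighm was at 264, 227, 229 and 246 CPM after sham and 208, 233, 174 and 226 CPM after surgery, with overlapping groups and a difference of -0.18 ± 0.08. Igll1, Vpreb1, Vpreb2 and Vpreb3 had log2 differences between -0.02 and 0.24. The 95% interval of Igll1 ran from -0.33 to 0.33.

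The number of B-lineage cells enters these sums. All shares here are of depleted and cKit-sorted cells, so a difference in the marrow and one in the sort cannot be told apart. Cells of the gate were 17.2%, 12.2%, 12.5% and 11.4% of all cells in the sham replicates and 11.4%, 11.99%, 10.7% and 12.2% in the surgery replicates. The means, 13.3% ± 2.62 and 11.6% ± 0.672 (SD, n = 4), differed by -1.75 percentage points (2-sided exact permutation p = 0.2), by -3.001 in batch 1 and -0.508 in batch 2. Without batch 1 sham replicate 1 the difference was -0.462. Within the gate, immature or mature B cells were 24.4% ± 4.69 after sham and 14.3% ± 5.73 after surgery (exact permutation p = 0.0571), with overlapping replicates, and pro-B cells 41.7% ± 6.31 and 50.2% ± 9.24 (exact permutation p = 0.2). As a share of all cells, immature or mature B cells were at 3.09%, 3.31%, 3.01% and 3.25% after sham and 1.86%, 1.02%, 1.17% and 2.61% after surgery. The groups did not overlap, and the exact permutation p of 0.0286 is the smallest that 70 splits allow. Adjusted over the 7 shares examined it was 0.2, the test was added after the stage counts had been seen, and at 2000 UMIs per cell the difference was -0.532 (exact permutation p = 0.2).

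**Figure D2:**
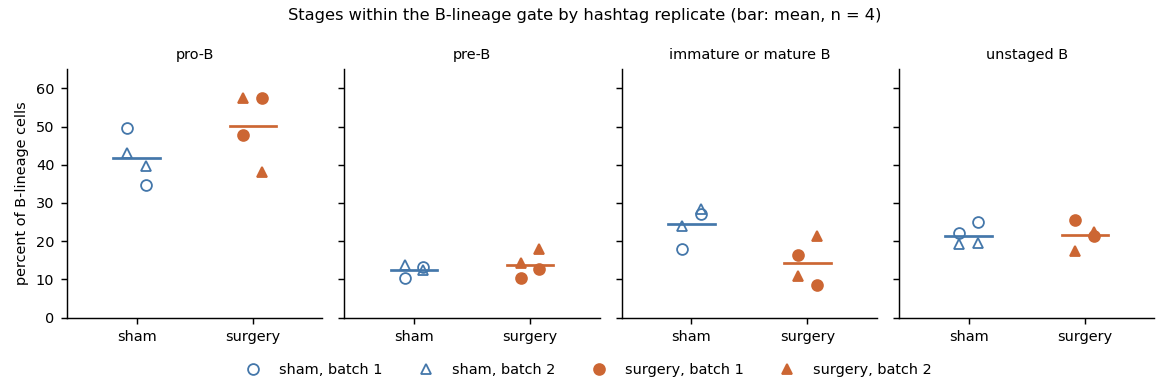
Share of B-lineage cells in each stage, in percent, by hashtag replicate (points; circles for batch 1, triangles for batch 2) with group means (bars, n = 4). Immature or mature B cells average 24.4% after sham and 14.3% after surgery, with overlapping replicates.

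Within the B-lineage gate 0 of 7 members passed the test (edgeR, lowest adjusted p = 0.660), beside 0.0303% of 9886 genes, and DESeq2 called 0. An unadjusted p under 0.05 was found for 2 members, beside 530 of the 9886 genes. Vpreb2 was at 301, 221, 261 and 239 CPM after sham and 244, 357, 423 and 316 CPM after surgery. Surgery replicates were higher apart from batch 1 replicate 1, which lay among the sham values. The log2 difference of Vpreb2 was 0.39 ± 0.13, and Cd79a was 0.16 ± 0.07 lower. The remaining members had differences from -0.18 for Cd79b to 0.23 for Vpreb1. The stage makeup given above moves with these values, and its part in them was not tested.

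In pro-B cells the test called 0 of 7 (edgeR; lowest adjusted p = 0.959), beside 0.0371% of 8092 genes, none had an unadjusted p under 0.05, and DESeq2 called 0. Igll1 was at 2429, 2186, 2590 and 2545 CPM after sham and 2056, 2310, 2709 and 2617 CPM after surgery, and the 2 groups spanned much the same range. Its log2 difference was 0.01 with a 95% interval from -0.10 to 0.11, and that of Vpreb1 was 0.06 with an interval from -0.07 to 0.19. The outermost differences were 0.19 for Vpreb2 and -0.11 for Cd79a.

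Pre-B cells held the 1 member called for surgery, Vpreb1, beside 0.0978% of 4090 genes. Vpreb1 was at 522, 602, 417 and 193 CPM after sham and 946, 847, 946 and 585 CPM after surgery. Batch 2 surgery replicate 2 lay just under the highest sham value, and the other surgery replicates were above every sham replicate. The difference was 0.90 ± 0.17 on the log2 scale, 1.87-fold (edgeR adjusted p = 0.0082). These values rest on few cells: between 6 and 29 cells per replicate had a Vpreb1 UMI, the sums were 34 to 243 UMIs, and the 5 richest cells held 35.8% to 97.1% of them. The call was lost with DESeq2 (0.97, adjusted p = 0.999), without the batch term (0.89, edgeR adjusted p = 0.263) and without batch 2 surgery replicate 1 (0.73, edgeR adjusted p = 0.0657). It was also lost within batch 1 (0.64, edgeR adjusted p = 0.150) and within batch 2 (1.20, edgeR adjusted p = 0.876). With mixed cells left out, which kept 191 sham and 132 surgery cells of 246 and 194, the difference was -0.14, and at 2000 UMIs per cell it was 0.17.

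Igll1 in pre-B cells was at 516, 498, 420 and 267 CPM after sham and 736, 563, 497 and 417 CPM after surgery, with overlapping groups and an uncalled difference of 0.34 ± 0.14. That difference was -0.47 with mixed cells left out and 0.10 at 2000 UMIs per cell. Vpreb2, at 7 to 51 UMIs per replicate, differed by 0.75 ± 0.29, uncalled, by -0.16 in batch 1 and 1.66 in batch 2. Ighm differed by -0.20 ± 0.09 and Vpreb3 by -0.00 ± 0.10, both uncalled. In all, 4 of 7 members had an unadjusted p under 0.05 in this stage, beside 201 of 4090 genes. The near copies Vpreb1 and Vpreb2 are both among them.

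**Figure D3:**
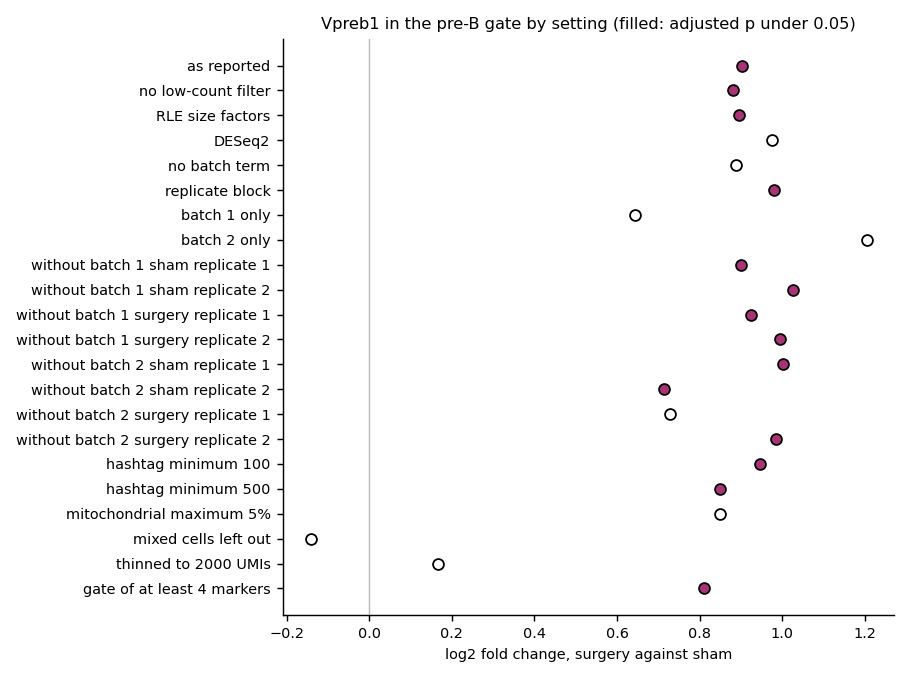
Log2 difference of Vpreb1 between surgery and sham in pre-B cells, as reported and under each alternative setting. Filled points have an adjusted p under 0.05: the value is 0.90 as reported and -0.14 with mixed cells left out.

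In immature or mature B cells 4 of the 7 members could be tested and 0 were called (edgeR; lowest adjusted p = 0.640), beside 0.0238% of 4200 genes, with 0 at an unadjusted p under 0.05 and 0 called by DESeq2. Vpreb3, Cd79a, Cd79b and Ighm had log2 differences from -0.30 to -0.10, each with an interval that includes 0. Igll1, too low for the test, had 1, 16, 9 and 1 UMIs in the sham replicates and 0 in each surgery replicate. A count of 0 allows up to 3 UMIs, which is 10.2 to 44.5 CPM in these replicates. The sham levels were 6.99, 37.9, 31.3 and 3.67 CPM. Summed over the surgery replicates the limit is 5.19 CPM, below each sham level but the last. Only 7 cells of the stage had an Igll1 UMI, and the difference was not tested. Vpreb1 had 3, 6, 10 and 1 UMIs after sham and 1, 0, 0 and 1 after surgery, and Vpreb2 had 13 UMIs, all in 2 sham replicates.

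**Figure D4:**
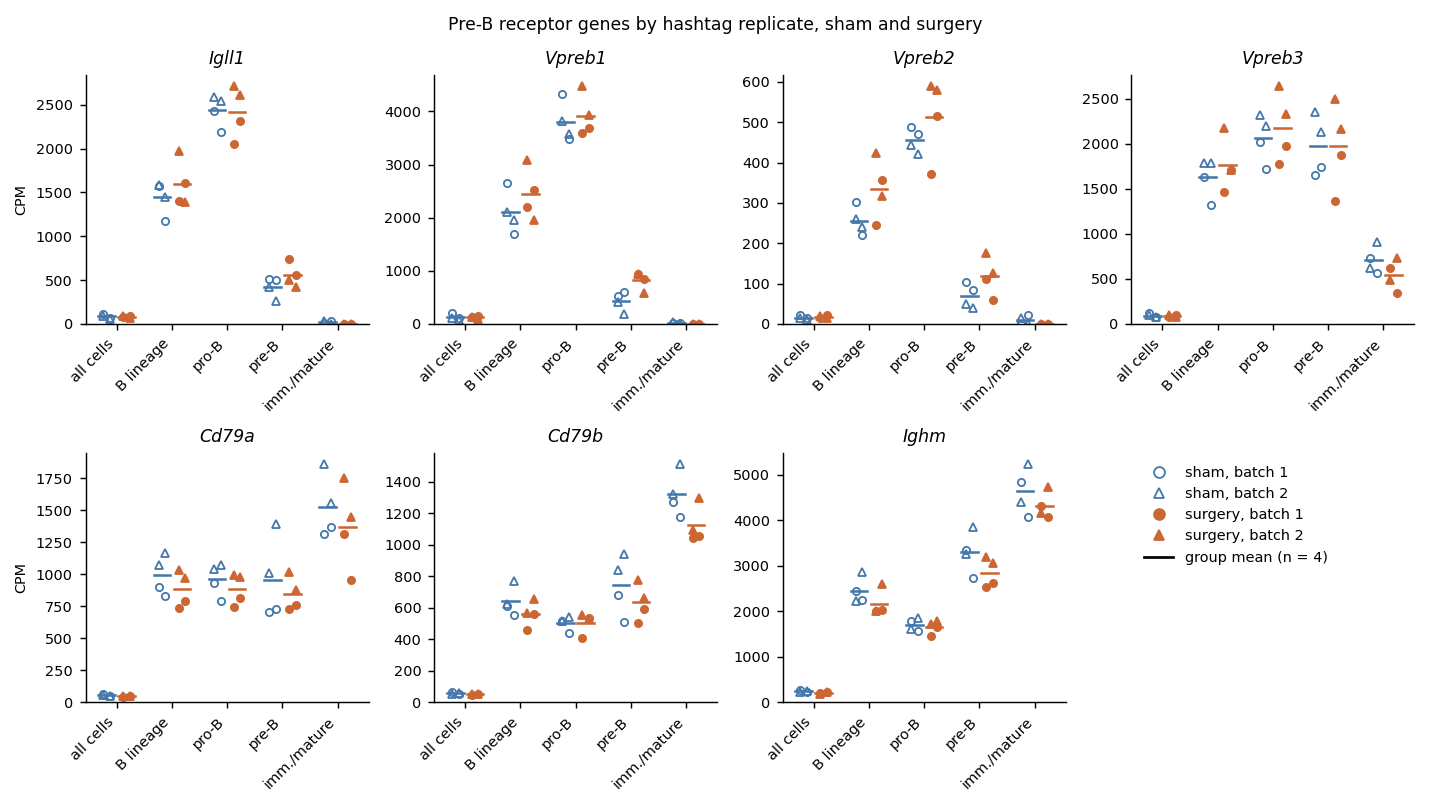
Level of each member in CPM by hashtag replicate (open blue, sham; filled orange, surgery; circles, batch 1; triangles, batch 2) over all cells, the B-lineage gate and its stages, with group means (bars, n = 4). Vpreb1 in pre-B cells spans 193 to 602 CPM after sham and 585 to 946 CPM after surgery.

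Lymphoid-primed cells, gated on genes such as Flt3 and Dntt, showed no called member (edgeR, 0 of 7, lowest adjusted p = 0.765), beside 0.241% of 9561 genes. DESeq2 called 0. An unadjusted p under 0.05 was found for 1 member, beside 622 of the 9561 genes. Igll1 was at 145, 86.9, 149 and 16.4 CPM after sham and 57.5, 44.0, 55.7 and 71.8 CPM after surgery. Vpreb1 was at 241, 100, 161 and 10.97 CPM after sham and 101, 58.4, 55.7 and 76.3 CPM after surgery. For both genes batch 2 sham replicate 2 lay below every other replicate. The differences were -0.58 ± 0.36 for Igll1, -0.54 ± 0.40 for Vpreb1 and -0.60 ± 0.28 for Vpreb3. The values depended on single replicates and on mixed cells. Without that sham replicate Igll1 fell by 1.10 (edgeR adjusted p = 2.6e-04) and Vpreb1 by 1.03 (edgeR adjusted p = 0.0145). Without batch 2 sham replicate 1 the differences were -0.03 for Igll1 and 0.03 for Vpreb1, and with mixed cells left out they were 0.09 and 0.31, none of them called. Within batch 1 the differences were -1.06 (edgeR adjusted p = 0.0032) and -0.89 (edgeR adjusted p = 0.0442), and within batch 2 they were -0.17 and -0.16, uncalled. The 8 B-lineage markers, all with UMIs in this gate, moved with these values: their summed level was 1016, 622, 806 and 248 CPM after sham and 447, 494, 605 and 501 CPM after surgery. Their part in the result was not tested. Between 4 and 22 cells per replicate had an Igll1 UMI.

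The difference of the surgery effect between the B-lineage and lymphoid-primed gates called 0 of 7 members (edgeR, lowest adjusted p = 0.8286), beside 0.0379% of 10548 genes. DESeq2 called 0. An unadjusted p under 0.05 was found for 2 members, beside 483 of the 10548 genes. Vpreb3 had an estimate of 0.71 ± 0.25, Igll1 of 0.69 ± 0.32 and Vpreb1 of 0.70 ± 0.35. Leaving out batch 2 sham replicate 2 called all 3, at 1.04, 1.23 and 1.24, whereas leaving out batch 2 sham replicate 1 gave 0.28, 0.23 and 0.18. With mixed cells left out the estimates were -1.08, 0.29 and 0.20, all uncalled.

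Across 8 gates outside the B lineage, 28 member and gate pairs could be tested and 0 were called, with 6 at an unadjusted p under 0.05 and 0 called by DESeq2. The 6 pairs lay in lymphoid-primed, neutrophil-granulocyte, monocyte and basophil-mast cells. In those gates 622 of 9561, 508 of 13429, 561 of 12586 and 291 of 8937 genes had an unadjusted p under 0.05. Background calls were 0.0375% of genes in stem and early multipotent cells, 0.0223% in neutrophil-granulocyte cells and 0.0636% in monocytes, and 0.0% in erythroid cells, megakaryocytes, basophil-mast cells and T, NK or innate lymphoid cells. Ighm in neutrophil-granulocyte cells was at 70.99 ± 1.27 CPM after sham and 61.5 ± 10.1 CPM after surgery (SD, n = 4), a difference of -0.21 ± 0.08. The groups overlapped. In basophil-mast cells Ighm went the other way, at 11.7 ± 2.90 CPM after sham and 22.2 ± 15.5 CPM after surgery, an uncalled difference of 0.84 ± 0.35 with overlapping groups, the highest value being that of batch 2 surgery replicate 1. Vpreb1 in monocytes was at 4.03 ± 1.24 CPM after sham and 5.98 ± 0.772 CPM after surgery, uncalled at 0.59 ± 0.21, with overlapping groups. For Ighm in monocytes the means were 247 ± 6.51 and 234 ± 8.98 CPM, a difference of -0.07 with a 95% interval from -0.15 to 0.01.

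**Figure D5:**
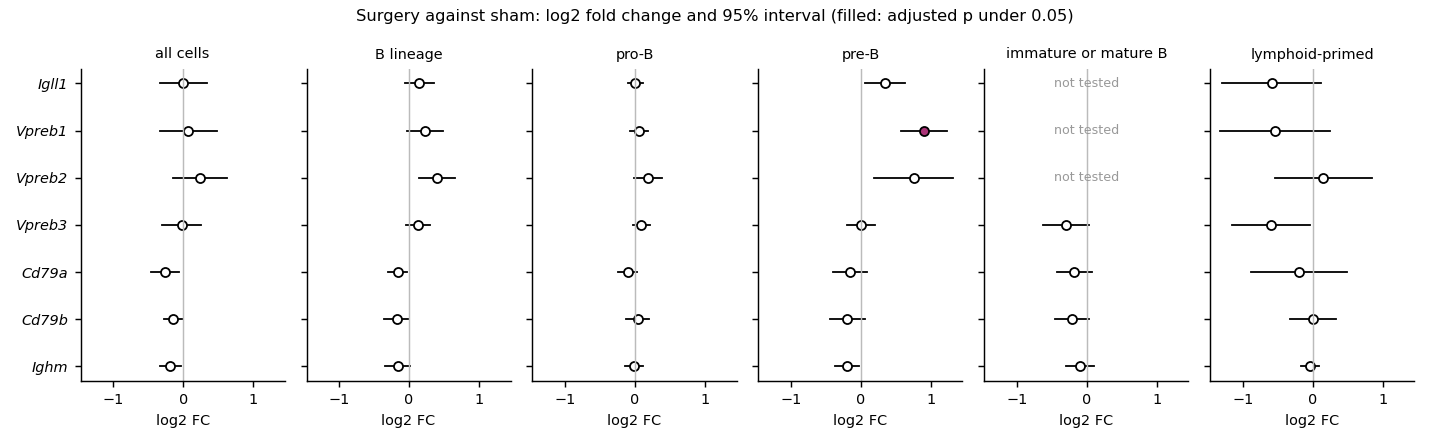
Log2 fold change of surgery against sham for each member with its 95% interval, in 6 cell sets. The intervals use a normal quantile, are narrower than the edgeR test implies and do not replace that test. The only filled point, past an adjusted p of 0.05, is Vpreb1 in pre-B cells at 0.90.

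The rest of the pathway was read from 6 lists. The light chains, which succeed the surrogate chain in the receptor, share a list with IgD. That list moved opposite to Igll1 between stages: all 5 of its genes rose at both steps (edgeR). From pro-B to pre-B the median log2 change of the list was 3.99, against 0.04 over all genes tested, and Ighd rose by 0.73 ± 0.18. Igkc, the kappa constant region, rose by 2.40 ± 0.10 at the next step. From pro-B to pre-B, 1202 of all 6181 genes tested were called higher and 980 lower, and the counts below are also of called genes. Among kinases and adaptors, 7 of 15 rose and 4 fell at that step, with a median of 0.21. Syk, the kinase recruited by the signalling tails of Cd79a and Cd79b, rose by 1.18 ± 0.08, and Blk, a Src-family kinase, by 1.56 ± 0.15. Inhibitory receptors and phosphatases had 4 of 5 tested genes higher and 1 lower. Fcgr2b, an inhibitory Fc receptor, rose by 2.04 ± 0.22, and Inpp5d, the lipid phosphatase SHIP1, fell by 1.15 ± 0.08. Of 14 transcription factors 8 rose and 4 fell. Ikzf3, which encodes Aiolos, rose by 2.73 ± 0.16, and Bach2 by 1.23 ± 0.06. Genes of V(D)J recombination and assembly fell in 5 of 9 cases and rose in 2, and cytokine receptor and cell cycle genes fell in 3 of 9 and rose in 2. The last 3 lists include Irf4, Rag1, Rag2, Dntt and Il7r, which set the stages, so their changes are partly built in.

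From pre-B to immature or mature B cells, 1383 of all 6181 genes tested were called higher and 1404 lower. Counting called genes again, 9 of 15 kinases and adaptors rose and 2 fell, and 4 of 5 inhibitory genes rose. Ptpn6, the phosphatase SHP-1, rose by 2.05 ± 0.13. Of the transcription factors 7 rose and 5 fell, of recombination genes 2 rose and 6 fell, and of cytokine and cell cycle genes 3 rose and 3 fell. Xrcc6, the Ku70 subunit of DNA end joining, fell by 2.94 ± 0.19.

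After surgery few pathway genes were called. Over all cells Ighd, the IgD constant region, was at 9.94, 9.85, 9.70 and 8.46 CPM in sham and 6.12, 6.10, 5.79 and 6.07 CPM in surgery replicates. The groups did not overlap, and Ighd fell by 0.64 ± 0.08 (edgeR adjusted p = 0.0356), the only call among the 61 pathway genes tested over all cells. It was called in 7 of 21 alternatives, with DESeq2 (adjusted p = 4.9e-05) but in no fit that left out a replicate. In the B-lineage gate Ighd differed by -0.64 ± 0.11, short of the threshold (edgeR adjusted p = 0.0565), and none of the pathway genes was called. The share of immature or mature B cells given above was also lower after surgery. Among the surgery replicates it ran from 1.02% to 2.61% of all cells, where Ighd over all cells ran from 5.79 to 6.12 CPM. The part of that share in the Ighd difference was not tested. In pre-B cells Iglc3, a lambda constant region, was at 179, 116, 81.6 and 216 CPM after sham and 13.1, 21.2, 84.1 and 51.8 CPM after surgery, from 2 to 47 UMIs. It fell by 1.71 ± 0.33 (edgeR adjusted p = 0.0107), a call kept in 11 of 20 alternatives, with the groups overlapping in batch 2 surgery replicate 1.

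Blk, downstream of the receptor, was at 8.68, 8.81, 10.4 and 7.68 CPM after sham and 24.5, 22.4, 48.6 and 43.97 CPM after surgery in lymphoid-primed cells, with every surgery value above every sham value. It rose by 2.004 ± 0.24 (edgeR adjusted p = 4.4e-05), from 4 to 68 UMIs per replicate. The Blk call was kept in 19 of 20 alternatives and lost in batch 1 alone (edgeR adjusted p = 0.224). With mixed cells left out Blk was not among the genes tested, so the call could not be checked without them. In B-lineage cells Blk was at 142 to 157 CPM after sham and 145 to 194 CPM after surgery, with overlapping groups. In pro-B cells alone it was at 107, 41.5, 39.3 and 55.7 CPM after sham and 91.7, 119, 106 and 139 CPM after surgery, also overlapping, a difference of 1.01 ± 0.23 short of the threshold (edgeR adjusted p = 0.112). Dntt, which adds N nucleotides at V(D)J joints and is itself a marker of the lymphoid-primed gate, rose there by 0.34 ± 0.06 (edgeR adjusted p = 0.0041). The Dntt call was lost without the batch term (edgeR adjusted p = 0.153), in batch 2 alone (edgeR adjusted p = 0.398) and at 2000 UMIs per cell, where the difference was 0.13 (edgeR adjusted p = 0.937). The most abundant genes of each list in the B-lineage gate stayed uncalled, among them Ebf1 (log2 difference 0.01 ± 0.08), Bach2 (-0.02 ± 0.08), Blnk (0.03 ± 0.10) and Inpp5d (-0.04 ± 0.10).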

How the data were processed

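UMI counts of mouse marrow cells, with hashtag counts in further lines, were used as deposited by the authors: whole-number counts, not normalised. Cell Ranger, without a version, and the build GRCm38 are listed in the submitters' processing notes. By the treatment labels each capture is a single condition, but by the hashtag labels each holds both, with 2 replicates of either. Hashtag names were followed, and wrong names in batch 2 would exchange its groups. Hashtag lines (22.2% and 16.1% of counts) stayed out of library sizes. Barcodes with at least 500 genes, 1000 UMIs, at most 10% mitochondrial UMIs and exactly 1 hashtag at 200 counts or more were kept, 14678 of 18094 and 12264 of 14179, and 4 kept barcodes occurred in both batches. A marker counted as present where its UMIs per 10000 exceeded its batch mean. Gates needed at least 3 of 8 markers and more than any other class, and stages at least 2 of 6. No doublet caller was run, and barcodes with several hashtags were removed.

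Counts were summed per replicate and gate, for gates with at least 10 cells in every replicate. All genes were fitted with edgeR 4.0.16 (R 4.3.3; filterByExpr, TMM, batch as a term, the replicate as a block between stages and gates) with Benjamini-Hochberg adjustment and a threshold of 0.05. DESeq2 1.42.0 was an alternative. Scripts were tested on simulated data. Pathway genes named are those called or the most abundant of their list. Members and lists were chosen with earlier results of these data known. Replicate numbers did not pair the samples (correlations of deviations 0.037 and -0.0705 over 7522 genes).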

Additional observations from a re-analysis of the deposited data

Results flagged for a closer look

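Ighm in the B-lineage gate was at 2608 CPM in batch 2 surgery replicate 2, far above the other surgery replicates at 2014, 2028 and 2001 CPM. The gap to its nearest neighbour exceeded Dixon's 95% limit for 4 values. Of 78 such groups of 4 replicates examined it was the only one, where chance flags about 1 in 20. The same replicate had the highest share of immature or mature B cells in the surgery group, 21.3% of B-lineage cells, and the part of that share in the value was not tested.

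The surgery effect on Blk differed between gates by a test of the difference itself. The estimate in B-lineage cells minus that in lymphoid-primed cells was -1.72 ± 0.24 on the log2 scale (edgeR adjusted p = 3.8e-04). It kept its call in 16 of 19 alternatives.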

How the results depend on the processing

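The alternatives changed normalization, tool, filter, batch term, hashtag and mitochondrial limits, gate, depth and mixed cells, and left out each replicate. Over all cells no alternative called a member. In the B-lineage gate the count of called members was 1 with no low-count filter (Vpreb2, 0.39). In the B stages the count of 1 became 0 with DESeq2, without the batch term, with batch 1 only, with batch 2 only, at a mitochondrial maximum of 5%, with mixed cells left out and at 2000 UMIs, and ranged from 0 to 1 when leaving out replicates. Vpreb1 in pre-B cells reversed to -0.14 with mixed cells left out. In the other gates the count was 3 with no filter and 2 with batch 1 only, and 0 to 2 leaving out replicates. For the difference between gates it was 3, 1 and 0 to 3 in that order. The counts between stages and for cycling cells stayed within 1.5 times. With the replicate block no count changed (1 in the B stages, 0 elsewhere for surgery), while Ighd over all cells lost its call (edgeR adjusted p = 0.228). The share of immature or mature B cells among all cells had exact permutation p values of 0.0571 when leaving out replicates and 0.333 within a batch, the smallest those designs allow. Of 68 uncalled member values, 35 had the other sign in at least 1 alternative. Causes were not tested. Depth limits the stages, with 29 to 94 pre-B cells and 22 to 195 immature or mature B cells per replicate.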

Other observations

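Barcodes outside the comparisons held members too. In batch 1 the 1785 quality-passing barcodes with no hashtag had Ighm at 93.7 CPM and Igll1 at 25.7 CPM, below the highest sham replicate of the batch, at 264 and 118 CPM. The 602 barcodes with several hashtags had Ighm at 242 CPM and Igll1 at 96.5 CPM. Corresponding values in batch 2 were 102 and 19.1 CPM in 982 barcodes with no hashtag, and 187 and 62.5 CPM in 322 with several. B-lineage cells of no stage held Igll1 at 1315 ± 244 CPM and Ighm at 1939 ± 324 CPM (SD, n = 8), and 47.1% of them were cycling.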
